A study of Homo sapiens with 6 samples.

Results

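The LDL receptor family was examined through 9 of its genes, VLDLR, LRP1, LRP5, LRP6, LRP8, LRP10, LRP11, LRP12 and SORL1, taken by gene name from an expression table of 58051 genes, and each name matched 1 row. The study sorted cells of MDA-MB-231, an established human line of triple-negative breast cancer with a mesenchymal-like form, after staining with fluorescein-tagged recombinant human FABP4, a small fatty acid carrier best known from adipocytes and macrophages. The FABP4 binding group and the FABP4 non-binding group had 3 libraries each. All 6 libraries came from wild-type cells that had been stained and passed through the flow cytometer, and no unstained or unsorted group was analysed here. The title places the comparison within a study of invasion, protein kinase C and mitochondrial oxidants. Values are TPM, a length-corrected share of all transcripts in a library, so levels can be compared between genes. TPM keep no record of read depth, so counting error could not be stated. Nothing in the labels ties the 3 libraries of a group to separate cultures, and the p-values below therefore describe spread between libraries that may be technical in origin.

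Members of this family are single-pass membrane receptors built from small cysteine-rich ligand-binding repeats, and most of them also carry propeller domains that release ligand inside endosomes. LRP5 and LRP6 are co-receptors for Wnt proteins, VLDLR and LRP8 take up lipoproteins and also signal for reelin, and LRP1 clears proteases, their inhibitors and matrix proteins from the cell surface. LRP10 and LRP12 belong to a branch with CUB domains, and SORL1 joins ligand-binding repeats to a VPS10P sorting domain that carries cargo between the Golgi and endosomes.

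Markers of the line were checked first. The 7 markers of MDA-MB-231 as a triple-negative, mesenchymal-like line all passed the filter. They summed to 1622 to 1912 TPM in binding libraries and 1228 to 1252 TPM in non-binding libraries. By limma 4 of them, AXL, CAV1, CD44 and EGFR, were higher in binding cells, beside 19.6% higher among all tested genes. VIM, SPARC and ZEB1 did not pass. Of 5 genes known to be low in this line, the oestrogen receptor gene ESR1 was listed at 0 in all 6 libraries and the progesterone receptor gene PGR was at most 0.0387 TPM in a binding library and 0.0573 TPM in a non-binding library. The other 3 were present: ERBB2 at 10.5 to 14.7 TPM in the binding group and 9.75 to 10.3 TPM in the non-binding group, and EPCAM at 7.33 to 8.27 and 4.44 to 7.01 TPM. The epithelial cadherin gene CDH1 had 2.89 to 4.15 TPM in the binding group and 6.02 to 7.29 TPM in the non-binding group and was lower in binding cells (adjusted p = 0.0387 by limma with Benjamini-Hochberg adjustment). Transcripts of the mitochondrial genome took 9.99% to 11.2% of TPM in binding libraries and 2.98% to 3.38% in non-binding libraries. None of 13 listed epidermal keratinocyte markers was at 0. They summed to 1468 to 2907 TPM in binding libraries and 3463 to 4993 TPM in non-binding libraries. By limma 7 of the 13 were lower in binding cells, beside 7.12% lower among all tested genes. DSC1, FLG, FLG2, LORICRIN, IVL and CALML5 did not pass, and all of these but DSC1 overlapped between the groups. The part of these epidermal transcripts in the family's values was not tested, and in sorted bulk samples fewer cells of a type and less RNA per cell cannot be told apart. Markers of adipocytes, leukocytes and fibroblasts had smaller sums than the keratinocyte markers. The fibroblast marker COL1A1 had 17.4 to 46.0 TPM in binding and 24.8 to 42.2 TPM in non-binding libraries. By limma 1 of the 5 fibroblast markers, PDGFRB, was higher in binding cells (Benjamini-Hochberg adjusted p = 0.0490), and the others did not pass. The 5 adipocyte markers summed to 1.45 to 4.86 TPM in binding and 2.11 to 7.46 TPM in non-binding libraries, with ADIPOQ and LEP listed at 0 throughout, the 5 leukocyte markers to 5.62 to 11.6 and 4.40 to 8.65 TPM, and the 5 fibroblast markers to 26.0 to 61.2 and 31.4 to 56.3 TPM.

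Transcripts of 4 of the 9 receptors were higher in FABP4 binding cells: LRP5 at 2.40 times, VLDLR at 2.22 times, LRP11 at 1.88 times and LRP10 at 1.72 times the non-binding mean. None of the 9 was lower past the threshold, and LRP1, LRP6, LRP8, LRP12 and SORL1 did not pass (limma on log2(TPM + 1), Benjamini-Hochberg over 15574 tested genes, adjusted p of 0.05). All 9 had passed the filter of 1 TPM in 3 libraries. Of all tested genes, 26.7% passed, 19.6% as higher and 7.12% as lower. Higher genes thus made up 73.3% of calls, a share that was 33.7% with all libraries shifted to one common median, 49.0% under quantile normalization and 84.6% after rescaling without mitochondrial genome transcripts. Under a filter of 5 TPM in 3 libraries, 7 of the 9 were tested and 4 were higher. Of all genes tested there, 32.7% were higher and 11.7% lower. The 9 genes had a median log2 change of 0.58, beside 0.36 for all tested genes, and 7 of them exceeded 0.36. The common median took the figure for all genes to 0.04 and quantile normalization to 0.11; LRP5, VLDLR and LRP10 passed under both, and after the rescaling without mitochondrial genome transcripts the same 4 genes passed. In 6 of the 9, LRP5, LRP8, LRP10, LRP11, LRP12 and VLDLR, every binding library lay above every non-binding library, as was so for 38.6% of all tested genes, and in 1, LRP6, every binding library lay below, as for 13.6%. Leaving out non-binding replicate 2 or non-binding replicate 3 left LRP5 as the 1 gene of the 9 past the threshold, while over all genes higher calls then numbered 280 and 58.

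**Figure D1:**
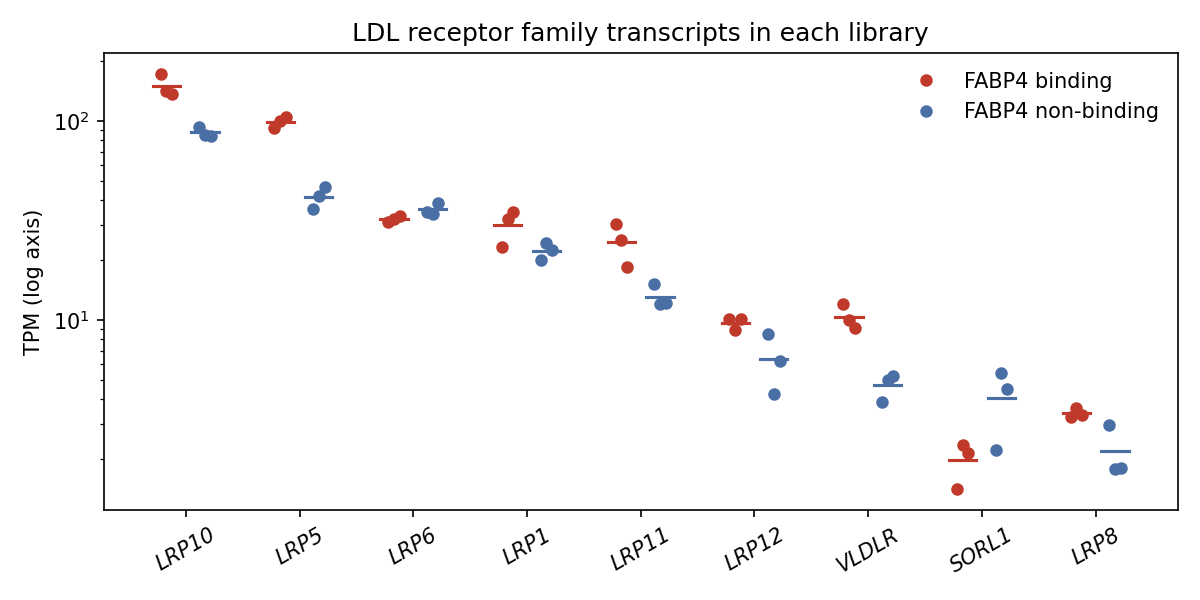
TPM of the 9 genes on a log axis in each library, FABP4 binding (red) left of FABP4 non-binding (blue), with points for libraries and bars for group means. The genes run by non-binding mean; LRP5 stands well above LRP6 in binding cells (99.6 against 32.2 TPM) and close to it in non-binding cells (41.5 and 36.0 TPM).

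**Figure D2:**
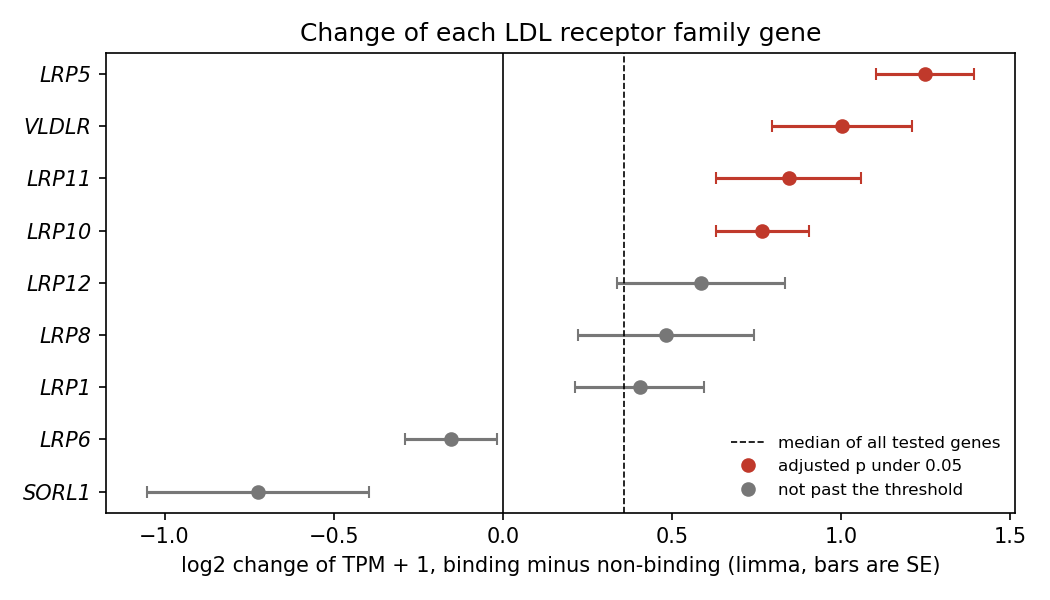
Log2 change of TPM + 1, binding minus non-binding, for each gene, with the standard error from limma; red points passed an adjusted p of 0.05 and the dashed line is the median of all tested genes, 0.36. The changes run from 1.25 for LRP5 to -0.72 for SORL1.

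LRP10 was the most abundant of the 9 transcripts and LRP5 the next in both groups. In binding libraries LRP10 averaged 151 TPM and LRP5 99.6 TPM, and neither range of values touched that of a neighbour. LRP6, LRP1 and LRP11 followed at 32.2, 30.1 and 24.7 TPM, where LRP6 overlapped LRP1 and LRP1 overlapped LRP11. VLDLR and LRP12, at 10.4 and 9.69 TPM, overlapped each other, and LRP8 at 3.38 TPM and SORL1 at 1.96 TPM came last and apart. In non-binding libraries LRP5 at 41.5 TPM overlapped LRP6 at 36.0 TPM, and LRP12, VLDLR, SORL1 and LRP8, at 6.32, 4.68, 4.04 and 2.18 TPM, overlapped each with the next. The 9 transcripts together came to 354 to 378 TPM in binding libraries and 214 to 222 TPM in non-binding libraries. LRP5 made up 27.5% ± 2.67 of that sum in binding and 19.1% ± 2.25 in non-binding libraries, while LRP6 made up 8.90% ± 0.595 and 16.5% ± 0.778 (SD, n = 3 each).

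The Wnt co-receptors LRP5 and LRP6 differed from each other in how they stood between the groups. LRP5 (ENSG00000162337, chromosome 11, 68312609 to 68449275, plus strand, hg38) had 92.8, 101 and 105 TPM in the binding libraries and 36.0, 41.9 and 46.7 TPM in the non-binding libraries. Every binding library lay far above every non-binding library. LRP5 averaged 99.6 ± 6.36 TPM across the binding libraries, against 41.5 ± 5.33 TPM across the non-binding ones (SD, n = 3 each), so its log2 change was 1.25 (SE 0.14; limma, Benjamini-Hochberg adjusted p = 0.00742), or 0.89 above the median of all genes. The change was larger than that of 97.7% of tested genes. LRP5 passed under each of the 14 alternatives tried, with log2 changes from 0.93 to 1.36 and adjusted p from 0.00451 to 0.0364 by limma. LRP5L, a partial copy of LRP5 that could share its reads, averaged 1.37 ± 0.748 TPM across the binding libraries, against 1.23 ± 0.232 TPM across the non-binding ones.

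LRP6 (ENSG00000070018, chromosome 12, 12116025 to 12267012, minus strand) had 31.2, 32.2 and 33.3 TPM in binding libraries and 35.0, 34.2 and 38.7 TPM in non-binding libraries. All 3 binding values lay just under all 3 non-binding values, and the spread within each group was small. LRP6 averaged 32.2 ± 1.09 TPM across the binding libraries, against 36.0 ± 2.39 TPM across the non-binding ones (SD, n = 3 each), so its log2 change was -0.15 (SE 0.14; limma, Benjamini-Hochberg adjusted p = 0.404). After all libraries were set to one median, its log2 change was -0.47 and passed as lower (limma, Benjamini-Hochberg adjusted p = 0.0491), and over the 14 alternatives the adjusted p ran from 0.0491 to 0.819.

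The ratio of 2 genes within a library does not depend on a scaling factor applied to that library. The LRP5 to LRP6 ratio was 2.98, 3.13 and 3.16 in binding libraries and 1.03, 1.23 and 1.21 in non-binding libraries, so binding cells had about 3 LRP5 transcripts for each LRP6 transcript and non-binding cells close to 1. The log2 ratio differed by 1.42, with no overlap between groups (exact two-sided permutation test p = 0.1, the smallest that 3 against 3 allows; adjusted over 3 pairs 0.3). The VLDLR to LRP8 ratio was 3.71, 2.78 and 2.76 in binding libraries and 1.30, 2.82 and 2.88 in non-binding libraries, and the groups overlapped (exact two-sided permutation test p = 0.6, adjusted 0.7). LRP10 to LRP12 was 17.1, 16.0 and 13.6 in binding libraries and 10.998, 20.05 and 13.6 in non-binding libraries, also with overlap (exact two-sided permutation test p = 0.7, adjusted 0.7). The 3 pairs were chosen after the values were seen.

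**Figure D3:**
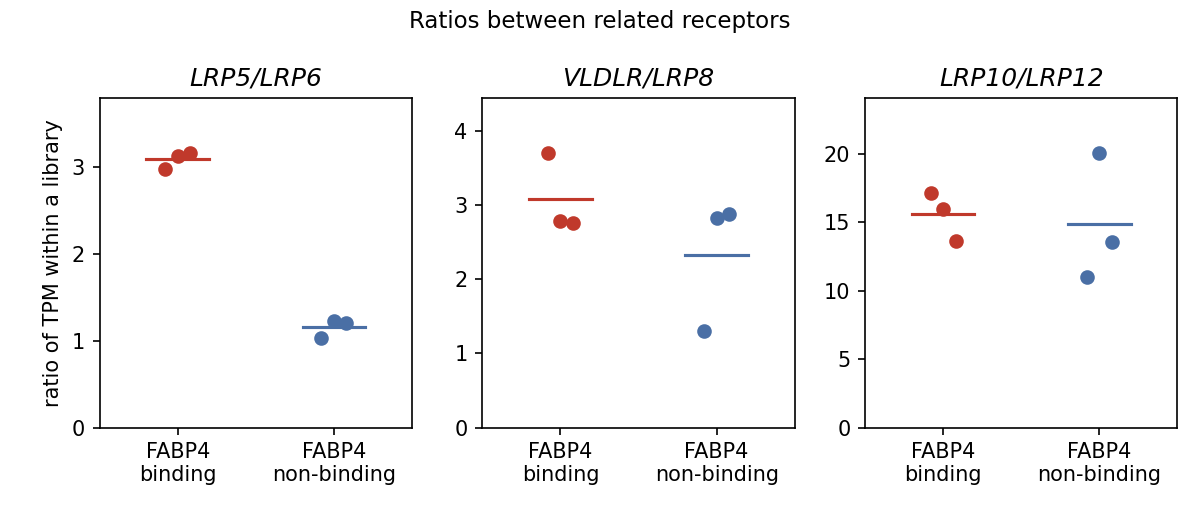
Ratio of TPM between related receptors within each library, FABP4 binding (red) left of FABP4 non-binding (blue), with points for libraries and bars for means. LRP5/LRP6 separates the groups at a mean of 3.09 and 1.15, while VLDLR/LRP8 and LRP10/LRP12 overlap.

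VLDLR, which binds triglyceride-rich lipoproteins and reelin (ENSG00000147852, chromosome 9, 2621834 to 2660053, plus strand), had 12.01, 10.02 and 9.12 TPM in binding libraries and 3.85, 5.00 and 5.20 TPM in non-binding libraries. The lowest binding library was well above the highest non-binding library. VLDLR averaged 10.4 ± 1.48 TPM across the binding libraries, against 4.68 ± 0.727 TPM across the non-binding ones (SD, n = 3 each), so its log2 change was 1.00 (SE 0.21; limma, Benjamini-Hochberg adjusted p = 0.0193). It passed under the common median (log2 change 0.68) and under quantile normalization (0.70). It fell short of the threshold when non-binding replicate 2 was left out (1.05, adjusted p = 0.0589) and when non-binding replicate 3 was (1.07, adjusted p = 0.0565) by limma.

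An antisense gene, VLDLR-AS1, overlaps VLDLR on the opposite strand and shares 738 of its 5989 exon bases with it in GENCODE release 29. It had 4.13, 3.43 and 3.44 TPM in binding libraries and 2.56, 2.21 and 1.69 TPM in non-binding libraries, without overlap (log2 change 0.57; limma, Benjamini-Hochberg adjusted p = 0.110). Whether the counting used strand is not given in the sources used here, so reads from VLDLR and its antisense partner cannot be told apart in the shared stretch.

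LRP8, the second reelin receptor of the family (ENSG00000157193, chromosome 1, 53242364 to 53328070, minus strand), had 3.24, 3.60 and 3.31 TPM in binding libraries and 2.96, 1.77 and 1.81 TPM in non-binding libraries. The groups did not overlap, but non-binding replicate 1 lay close to the binding libraries. Its log2 change was 0.48 (SE 0.26), short of the threshold (adjusted p = 0.181 by limma with Benjamini-Hochberg adjustment), and at this low level a change on the log2(TPM + 1) scale is understated. The change was 0.16 under the common median and 0.27 under quantile normalization.

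LRP10, which cycles between the Golgi, endosomes and the cell surface (ENSG00000197324, chromosome 14, 22871613 to 22881580, plus strand), had 173, 142 and 137 TPM in binding libraries and 93.5, 85.1 and 84.5 TPM in non-binding libraries. Every binding library lay far above every non-binding library. LRP10 averaged 151 ± 19.7 TPM across the binding libraries, against 87.7 ± 5.03 TPM across the non-binding ones (SD, n = 3 each), so its log2 change was 0.77 (SE 0.14; limma, Benjamini-Hochberg adjusted p = 0.0151). The change was 0.45 under the common median and 0.70 under quantile normalization, and passed under both. Without non-binding replicate 2 (0.75, adjusted p = 0.0570) or non-binding replicate 3 (0.74, adjusted p = 0.0579) it did not pass by limma.

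LRP12, of the same branch (ENSG00000147650, chromosome 8, 104489231 to 104589024, minus strand), had 10.1, 8.90 and 10.1 TPM in binding libraries and 8.50, 4.24 and 6.23 TPM in non-binding libraries. The binding libraries were tightly grouped and the non-binding ones were not, with non-binding replicate 1 just under the lowest binding library. The log2 change was 0.58 (SE 0.25), short of the threshold (adjusted p = 0.106 by limma with Benjamini-Hochberg adjustment). The change was 0.27 under the common median and likewise under quantile normalization, and 0.36 without non-binding replicate 2.

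LRP11, a smaller membrane protein with a single ligand-binding repeat (ENSG00000120256, chromosome 6, 149818798 to 149864026, minus strand), had 30.5, 25.1 and 18.5 TPM in binding libraries and 15.1, 11.97 and 12.2 TPM in non-binding libraries. The binding libraries were spread over a wide range and all lay above the non-binding ones. LRP11 averaged 24.7 ± 5.97 TPM across the binding libraries, against 13.1 ± 1.76 TPM across the non-binding ones (SD, n = 3 each), so its log2 change was 0.84 (SE 0.21; limma, Benjamini-Hochberg adjusted p = 0.0286). Of the 4 calls this was the least stable: it was lost without a filter (0.84), under quantile normalization (0.52) and under the common median (0.53), and without any 1 of binding replicates 1 and 2 and non-binding replicates 2 and 3.

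LRP11 is also crossed by other transcripts in GENCODE release 29. AL355312.3, an antisense gene on the opposite strand that shares 158 of its 312 exon bases with LRP11, had 81.1, 70.7 and 64.5 TPM in binding libraries and 35.9, 41.5 and 19.8 TPM in non-binding libraries, a level per length above that of LRP11 in every library. It was higher in binding cells (log2 change 1.19, SE 0.26; limma, Benjamini-Hochberg adjusted p = 0.0215). Without knowledge of strand in the counting, the share of LRP11 reads that belong to it cannot be told apart. RAET1E-AS1, also on the opposite strand with 533 shared exon bases, had 11.9, 3.45 and 3.33 TPM in binding libraries and 1.98, 0 and 2.92 TPM in non-binding libraries. AL355312.5, a protein-coding gene on the same strand, shares 2641 of the 5652 exon bases of LRP11. It was not analysed here, and reads from the shared bases cannot be told apart. These neighbours were looked at because of their position, after the values were seen.

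LRP1, the large endocytic receptor for proteases, inhibitors and matrix proteins (ENSG00000123384, chromosome 12, 57128493 to 57213351, plus strand), had 23.2, 32.2 and 34.9 TPM in binding libraries and 20.1, 24.3 and 22.5 TPM in non-binding libraries. Binding replicate 1 lay among the non-binding libraries and the other two above them. LRP1 averaged 30.1 ± 6.12 TPM across the binding libraries, against 22.3 ± 2.11 TPM across the non-binding ones (SD, n = 3 each), so its log2 change was 0.40 (SE 0.19; limma, Benjamini-Hochberg adjusted p = 0.135), close to the median of all genes. Without binding replicate 1 the change was 0.57 and passed (limma, Benjamini-Hochberg adjusted p = 0.0345, within a range over the 14 alternatives of 0.0345 to 0.809). Under the common median it was 0.09.

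SORL1, the VPS10P sorting receptor (ENSG00000137642, chromosome 11, 121452203 to 121633693, plus strand), had 1.40, 2.36 and 2.13 TPM in binding libraries and 2.22, 5.42 and 4.49 TPM in non-binding libraries. Non-binding replicate 1 lay within the binding range and the groups overlapped. The mean in binding libraries was 0.486 of that in non-binding libraries, and its log2 change was -0.72 (SE 0.33; adjusted p = 0.124 by limma with Benjamini-Hochberg adjustment). It was negative under all 13 alternatives that tested the gene, from -1.04 to -0.52, and passed in none. SORL1 had the lowest change of the 9 genes, with 7.94% of tested genes below it, and its mean was below that of LRP8 in binding libraries and above it in non-binding ones.

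Promoter sequence was available for 7 of the 9 genes in the RefSeq table of GRCh38.p14, the exceptions being LRP6 and LRP12. The 4 genes that were higher in binding cells are shown, as the bases before the transcription start, to let their start regions be compared. Capitals mark a GC box, GGGCGG or CCGCCC on the other strand, or the core of the hypoxia element, ACGTG or CACGT on the other strand. For LRP10 the stretch stops where GENCODE places its first start.
LRP5, chr11:68312341-68312590, plus strand: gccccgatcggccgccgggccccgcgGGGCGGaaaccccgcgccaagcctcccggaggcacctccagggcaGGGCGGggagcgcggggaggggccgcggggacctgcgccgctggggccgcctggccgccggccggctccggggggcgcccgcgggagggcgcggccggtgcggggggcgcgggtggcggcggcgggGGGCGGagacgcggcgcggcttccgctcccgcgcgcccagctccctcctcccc
VLDLR, chr9:2621537-2621786, plus strand: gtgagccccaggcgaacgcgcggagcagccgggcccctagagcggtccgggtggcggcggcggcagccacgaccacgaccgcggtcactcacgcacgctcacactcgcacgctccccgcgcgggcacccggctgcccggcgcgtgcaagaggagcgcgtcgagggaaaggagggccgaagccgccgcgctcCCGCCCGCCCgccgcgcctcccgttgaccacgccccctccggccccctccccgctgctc
LRP11, chr6:149864360-149864609, minus strand: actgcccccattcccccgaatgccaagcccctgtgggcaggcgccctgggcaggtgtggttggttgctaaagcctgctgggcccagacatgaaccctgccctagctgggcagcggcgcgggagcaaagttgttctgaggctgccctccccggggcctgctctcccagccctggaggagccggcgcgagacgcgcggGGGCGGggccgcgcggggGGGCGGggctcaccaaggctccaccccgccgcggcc
LRP10, chr14:22871490-22871612, plus strand: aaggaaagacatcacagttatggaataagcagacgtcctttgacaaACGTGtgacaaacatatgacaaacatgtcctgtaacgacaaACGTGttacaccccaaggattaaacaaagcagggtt

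Over the 250 bases before the RefSeq start, the LRP5 promoter was 87.2% G and C with 43 CpG pairs and 3 GC boxes, VLDLR 78.8% with 41 CpG pairs and 2 overlapping GC boxes, and LRP11 74.0% with 20 CpG pairs and 2 GC boxes. The median of all 35116 promoters of that length was 58.0% G and C, and 42.6% of them held a GC box. LRP10 differed from these 3, at 51.6% with no GC box, 1 CCAAT and 2 copies of ACGTG, which 32.0% and 18.5% of all promoters hold on either strand. The LRP10 window runs past its first GENCODE start, and the CCAAT match lies after that start, outside the stretch shown above. Among the genes that did not pass, LRP1 had 1 GC box, LRP8 3 and SORL1 2, so GC boxes occurred in called and uncalled genes alike. The same held for a high share of G and C. SORL1 had 80.4% with 45 CpG pairs, LRP8 77.2% with 31 and LRP1 67.6% with 20. In SORL1 the 2 matches to ACGTG are both strands of 1 palindrome. TATAAA and the AP-1 site TGACTCA, searched on both strands, had no match in these 7 windows and occur in 10.7% and 4.2% of all promoters. A match is a string of letters and no binding was measured.

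Other genes of the wider family were mostly low. Of 8 listed, 4 were tested and 1, LDLRAD3, was higher in binding cells, at 23.5, 15.2 and 19.6 TPM in binding and 11.2, 9.82 and 11.6 TPM in non-binding libraries (log2 change 0.77; limma, Benjamini-Hochberg adjusted p = 0.0303). That call was lost without a filter (0.77), under the common median (0.45), under quantile normalization (0.44) and without any 1 of binding replicates 1 and 3 or non-binding replicates 1, 2 and 3. LDLRAD3 is a membrane protein with ligand-binding repeats. LRP2, the megalin of kidney epithelium, had 1.68, 1.28 and 1.66 TPM in binding and 0.246, 0 and 0.923 TPM in non-binding libraries. It missed the threshold (adjusted p = 0.0880 by limma with Benjamini-Hochberg adjustment). Only its binding libraries reached the 1 TPM of the filter, so LRP2 was tested solely through the group where it is higher. LRP3 averaged 1.04 ± 0.192 TPM across the binding libraries, against 1.86 ± 0.967 TPM across the non-binding ones, and LRP4, an agrin receptor, 3.83 ± 0.348 and 3.92 ± 0.560 TPM (SD, n = 3 each); neither passed (adjusted p = 0.336 and 0.940 by limma with Benjamini-Hochberg adjustment).

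Chaperones and adaptors that fold, cluster or degrade these receptors included 3 higher and none lower of 11 tested, a share not far from the 19.6% higher among all tested genes. Their median log2 change was 0.52, beside 0.36 for all genes. Without binding replicate 1 that median was 0.26, as for all genes, and it was 0.20 under the common median and 0.19 under quantile normalization. MESD, the chaperone that LRP5 and LRP6 need to leave the endoplasmic reticulum, had 20.9, 14.4 and 17.7 TPM in binding and 9.36, 8.05 and 8.23 TPM in non-binding libraries, with no overlap (log2 change 0.96, SE 0.19; limma, Benjamini-Hochberg adjusted p = 0.0181). LRPAP1, the receptor-associated protein that keeps family members from binding ligand too early, had 32.8, 23.4 and 24.4 TPM in binding and 16.8, 12.3 and 17.6 TPM in non-binding libraries, also apart (log2 change 0.75; limma, Benjamini-Hochberg adjusted p = 0.0347). NUMB, an endocytic adaptor, averaged 13.2 ± 0.522 TPM across the binding libraries, against 8.42 ± 1.06 TPM across the non-binding ones (SD, n = 3 each). Under the common median 1 gene of the list was higher and 2 lower, and under quantile normalization 1 was higher. MESD passed under both but not without non-binding replicate 2 or 3, whereas LRPAP1 and NUMB did not and were also lost without any 1 library.

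Genes that act beside LRP5 and LRP6 in Wnt reception included 6 higher and none lower of 26 tested, FZD6, FZD8, LGR4, DVL2, DVL3 and CAV1, a share near the 19.6% of all tested genes. Their median log2 change was 0.46, beside 0.36 for all genes. LGR4, an R-spondin receptor that raises Wnt receptor levels, had 24.4, 27.1 and 25.5 TPM in binding and 14.4, 14.0 and 14.5 TPM in non-binding libraries, with little spread and no overlap (log2 change 0.80, SE 0.15; limma, Benjamini-Hochberg adjusted p = 0.0154). CAV1, the caveolar coat protein, averaged 154 ± 48.1 TPM across the binding libraries, against 76.6 ± 2.85 TPM across the non-binding ones, and DVL3, a Dishevelled adaptor, 36.3 ± 2.99 and 24.4 ± 2.74 TPM (SD, n = 3 each). Under the common median 1 gene was higher and 1 lower, and under quantile normalization 1 was higher; LGR4 and DVL3 were lost under both, DVL3 also without any 1 library, and CAV1 passed under both.

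Ligands of LRP1, VLDLR and LRP8, together with the urokinase receptor that LRP1 internalises, included 10 higher and none lower of 18 tested, where 19.6% of all tested genes were higher and 7.12% lower. Under the filter of 5 TPM all 18 were tested and 10 were higher, beside 32.7% higher and 11.7% lower of all genes. Their median log2 change was 0.70, beside 0.36 for all genes. PLAU, the urokinase protease, had 164, 111 and 103 TPM in binding and 55.0, 56.5 and 51.8 TPM in non-binding libraries, with no overlap (log2 change 1.17, SE 0.19; limma, Benjamini-Hochberg adjusted p = 0.0131). Its receptor PLAUR averaged 79.5 ± 7.71 TPM across the binding libraries, against 40.7 ± 5.46 TPM across the non-binding ones, and the matrix protein THBS1 71.0 ± 14.0 and 31.7 ± 4.13 TPM (SD, n = 3 each), with adjusted p of 0.0135 and 0.0136 by limma and Benjamini-Hochberg. RELN, the ligand shared by VLDLR and LRP8, was at most 0.118 TPM in a binding library and 0.140 TPM in a non-binding library and was not tested. Under the common median 4 of the 18 were higher, beside 6.18% of all genes, with a median of 0.38 beside 0.04. Under quantile normalization 7 were higher, beside 7.69% of all genes, and none was lower in either.

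Proteases that cut family members included 5 higher and none lower of 13 tested, beside 19.6% higher among all genes. Under the filter of 5 TPM 5 of 12 were higher and 1 lower, beside 32.7% and 11.7% of all genes. Their median log2 change was 0.41, close to the 0.36 of all genes. ADAM17, a sheddase, averaged 34.5 ± 1.59 TPM across the binding libraries, against 21.2 ± 2.33 TPM across the non-binding ones, BACE1 12.7 ± 1.80 and 6.33 ± 0.268 TPM, and NCSTN, a subunit of gamma-secretase, 93.7 ± 15.8 and 52.2 ± 2.96 TPM (SD, n = 3 each), with adjusted p of 0.0215, 0.0193 and 0.0158 by limma and Benjamini-Hochberg. Under the common median 2 were higher and 2 lower, and under quantile normalization 2 were higher; ADAM17 was lost under both. It was also lost without binding replicate 3 and without any 1 of the non-binding replicates.

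The sorting machinery around SORL1 had 2 higher and 3 lower genes of 14 tested, where 19.6% of all genes were higher and 7.12% lower, and the other 9 did not pass. Under the filter of 5 TPM these counts stood, beside 32.7% higher and 11.7% lower of all genes. The list had a median log2 change of -0.02 against 0.36 over all genes. SNX5, a retromer-associated sorting nexin, had 59.2, 61.8 and 63.5 TPM in binding and 89.2, 104 and 87.1 TPM in non-binding libraries, with every binding library below every non-binding library (log2 change -0.59, SE 0.13; limma, Benjamini-Hochberg adjusted p = 0.0216). VPS35, the retromer core subunit, averaged 67.2 ± 4.51 TPM across the binding libraries, against 94.0 ± 5.72 TPM across the non-binding ones (SD, n = 3 each), and SNX2 was also lower. PACS1, a cargo adaptor, averaged 27.2 ± 4.42 TPM across the binding libraries, against 16.0 ± 1.48 TPM across the non-binding ones, and SORT1, the sortilin relative of SORL1, was also higher. Leaving out 1 library ended the call of SNX5 for each of the non-binding replicates, of PACS1 for these and binding replicate 3, and of VPS35 for these and binding replicates 2 and 3. Under the common median 5 genes were lower and none higher, under quantile normalization 3 and none, and after rescaling without mitochondrial genome transcripts 1 was lower and 2 higher. The median turned to 0.10 after that rescaling, and to 0.03, 0.02 and 0.00 without binding replicate 3, non-binding replicate 1 and non-binding replicate 2. No gene of these 6 partner lists passed without non-binding replicate 3, and without non-binding replicate 2 there were 2, both ligands.

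**Figure D4:**
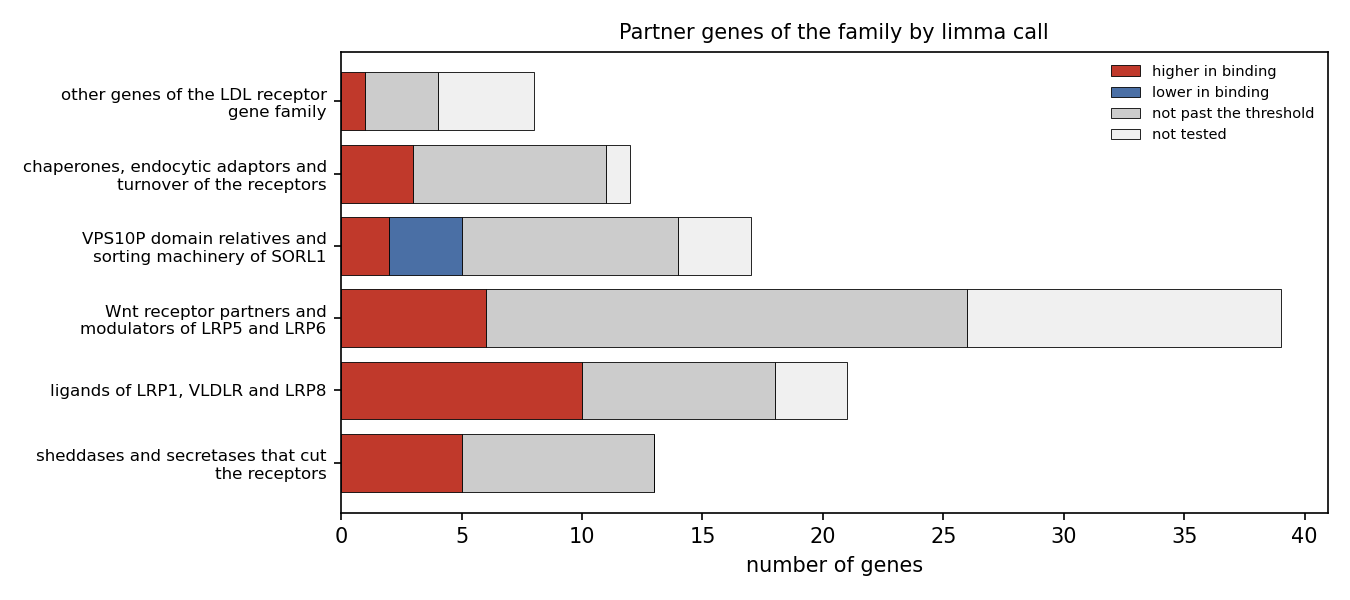
Number of genes in each of 6 partner lists by limma call: higher in FABP4 binding cells (red), lower (blue), not past an adjusted p of 0.05 (grey) and not tested (pale). Ligands hold the most higher genes, 10 of 18 tested, and 3 lower genes stand in the SORL1 sorting list.

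**Figure D5:**
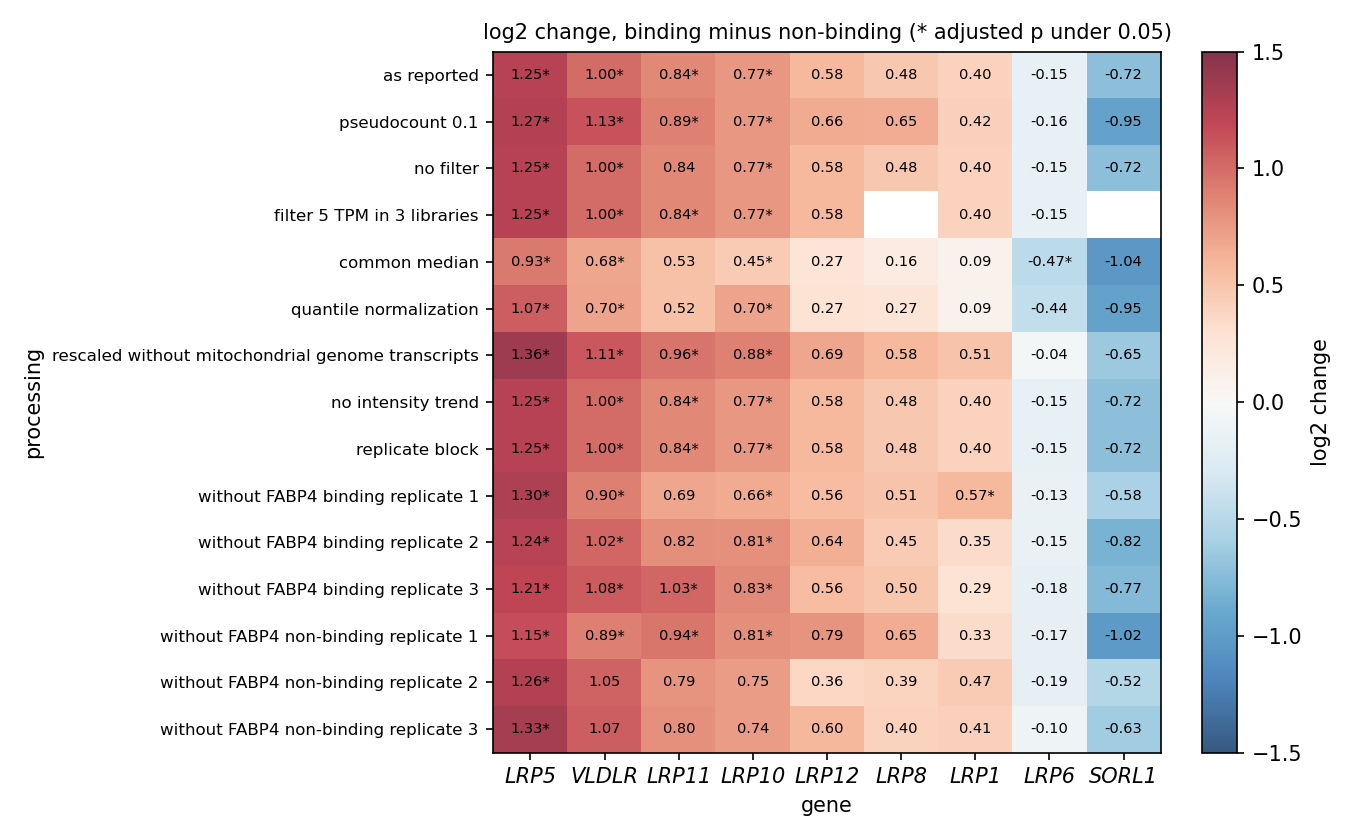
Log2 change of the 9 genes, binding minus non-binding, under the reported processing (top) and the 14 alternatives, with an asterisk where the limma adjusted p was under 0.05 and blanks where a gene was not tested. LRP5 carries an asterisk in every line, and no gene changes sign.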

How the data were processed

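The submitters sequenced ribosomal RNA-depleted, randomly primed total RNA, per the labels' protocols. The authors deposited TPM, which sum to 1000000 in each of the 6 libraries, on genome build hg38 according to the submitters' processing notes. The aligner, quantification tool, annotation and use of strand were not given in the sources used here. Because TPM are shares, a rise in one transcript class reduces the rest, and they carry no depth.

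Columns were matched to samples by the names the labels give. The 15574 genes that reached 1 TPM in 3 or more libraries were tested on log2(TPM + 1) with limma 3.58.1 in R 4.3.3 (intensity trend, no covariate, Benjamini-Hochberg at 0.05). Fold changes on this scale are understated for low genes. The code was tested on simulated data. Ratios had an exact permutation test. Alternatives were pseudocount 0.1, no filter, a filter of 5 TPM, common median, quantile normalization, rescaling without mitochondrial genome transcripts, no trend, a replicate block and leaving out each library. Coordinates and overlaps come from GENCODE release 29, which holds 99.0% of the identifiers, and promoters from RefSeq. The members and lists were chosen with earlier results of these data known. Named were all members, tested relatives, and from each other list the 3 called genes with the smallest p and the largest opposite call, if any. Genes whose pattern was most like that of the most significant and the most abundant member were also named; other names were chosen after their values were seen.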

Additional observations from a re-analysis of the deposited data

How the results depend on the processing

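Over the 9 genes and 14 alternatives, 111 of 124 values kept the side of the threshold and the direction, 11 lost a call, 2 gained one and none reversed. LRP11 lost its call without a filter (0.84), under quantile normalization (0.52) and under the common median (0.53), and LRP6 gained one under the common median (-0.47), where 1 member was lower. Without 1 library at a time, log2 changes ran from 0.69 to 1.03 for LRP11, 0.66 to 0.83 for LRP10, 0.89 to 1.08 for VLDLR, 0.29 to 0.57 for LRP1, 0.36 to 0.79 for LRP12 and 0.39 to 0.65 for LRP8, and 1 to 4 members were higher. Over all genes, 3047 were higher and 1109 lower as reported, 1373 and 500 without a filter, and 3422 and 1224 under the 5 TPM filter. The counts were 962 and 1890 under the common median, 1197 and 1246 under quantile normalization, and 1992 and 567 without the trend. Without 1 library they ran from 58 to 1975 and from 6 to 888. The cause of these shifts was not tested. LRP4 turned to 0.068 after rescaling without mitochondrial genome transcripts and ran from -0.086 to 0.067 without 1 library. The labels link same-numbered libraries of the groups by a number alone, and whether they were paired is not given. Their deviations correlated at 0.03, -0.02 and 0.03, and not every library correlated best with its own number. With 3 libraries per group these values cannot decide on pairing. With the replicate block 3174 genes were higher and 1132 lower, the calls of the 9 genes stood, and NUMB lost its call (adjusted p = 0.0546 by limma). Under the block the chaperone list had 2 higher and 1 lower, the protease list 5 and 1, and the sorting list 2 and 2, while the counts of the other 3 lists stood. LRP8 and SORL1 were not tested under the 5 TPM filter. Since TPM keep no depth, LRP8 and SORL1, under 6 TPM in every library, have a precision that cannot be stated.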

Other observations

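Genes whose levels followed LRP5 and LRP10 most closely over the 6 libraries were listed by Pearson correlation of log2(TPM + 1), as a description without a test. For LRP5 these were COLGALT2, a collagen galactosyltransferase (r = 0.999), PLXND1, a semaphorin receptor (r = 0.996), and FICD, an AMPylating enzyme of the endoplasmic reticulum (r = 0.993). PLXND1 averaged 31.2 TPM across the binding libraries, against 14.8 TPM across the non-binding ones. For LRP10 they were S100P, a calcium-binding protein (r = 0.999), EDIL3, a secreted integrin ligand (r = 0.999), and MRPL10, a mitochondrial ribosomal protein (r = 0.999). EDIL3 averaged 88.4 TPM across the binding libraries, against 36.3 TPM across the non-binding ones. With 6 libraries in 2 groups such values are common: 347 genes lay above 0.95 with LRP5 and 1745 with LRP10.

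A processed pseudogene within an LRP6 intron, AC007537.2, lay on the opposite strand and shared no exon base with LRP6. It averaged 1.85 ± 0.763 TPM across the binding libraries, against 7.75 ± 2.65 TPM across the non-binding ones (SD, n = 3 each; log2 change -1.61; adjusted p = 0.0185 by limma with Benjamini-Hochberg adjustment). STAT6 overlaps LRP1 by 59 exon bases on the opposite strand. It averaged 39.5 ± 4.61 TPM across the binding libraries, against 29.4 ± 1.85 TPM across the non-binding ones (adjusted p = 0.0734 by limma with Benjamini-Hochberg adjustment). Both were looked at for their position, after the values were seen.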
